A study of Mus musculus with 6 samples.

Results

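The 4 connexin genes of the blood vessel wall, Gja1, Gja4, Gja5 and Gjc1, and the pannexin gene Panx1 were described in whole aortas of NPR1+/- and wild type (WT) mice. They were chosen by name as the gap junction genes of vascular cells and the related membrane channel, and found through their NCBI gene identifiers as 5 of the 18191 genes measured. RNA of the whole aorta was sequenced on the BGISEQ-500 platform in 3 WT and 3 NPR1+/- libraries, all from male mice. NPR1+/- mice carried 1 disrupted copy of Npr1, which encodes a receptor for natriuretic peptides, made by CRISPR-Cas9 in the whole animal, so that no single cell type was targeted. WT mice carried both copies, and no drug or other treatment was named for either group. Age and strain of these mice were not given in the sources used here, and the labels number the samples of each genotype from 1 to 3 without saying that each came from a separate mouse, so that p-values measure the spread between these 6 samples. Each library held between 13510970 and 16664343 estimated counts.

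A connexin hemichannel is a ring of connexin proteins in the plasma membrane, and hemichannels of adjacent cells dock to form a gap junction that passes ions and small metabolites. In large arteries, Gja4 (protein Cx37) and Gja5 (Cx40) are known as the connexins of endothelium, Gja1 (Cx43) is found in smooth muscle and in endothelium exposed to disturbed flow, and Gjc1 (Cx45) belongs to smooth muscle. Panx1 forms channels that open to the outside of the cell and release ATP, and it is not known to build gap junctions in vessels.

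The genes lie on 5 chromosomes of GRCm38.p6, the patch release of the mm10 build named in the labels. Gja1 (NCBI gene 14609) was placed at chr10:56377300-56390419 on the plus strand and Gja4 (14612) at chr4:127311420-127314039 on the minus strand. Gjc1 (14615) was placed at chr11:102799477-102819686 and Panx1 (55991) at chr9:15005785-15045478, both on the minus strand. Gja5 (14613), at chr3:97032402-97053634 on the plus strand, lies on the same chromosome as Npr1, with 6.57 Mb between them. In the longest coding transcript of GENCODE M21, the coding sequence of Gja1, Gja4 and Gjc1 lay in 1 exon each, that of Gja5 in 2 exons and that of Panx1 in 5.

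Connexins share 3 cysteines in the first extracellular loop that hold the docking surface together. Codons for 3 cysteines, with 6 and then 3 other codons between them, were searched in the longest coding sequence of each gene. The matches are shown because the 4 connexins held this spacing and the pannexin did not. The cysteine codons are in capitals, from codon 54 to codon 65 in Gja1, Gja4 and Gja5 and from codon 53 to codon 64 in Gjc1.
Gja1: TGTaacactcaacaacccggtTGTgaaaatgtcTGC
Gja4: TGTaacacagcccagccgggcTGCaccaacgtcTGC
Gja5: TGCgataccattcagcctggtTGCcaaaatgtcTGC
Gjc1: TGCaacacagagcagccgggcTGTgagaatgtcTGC
This spacing was found once in each of the 4 connexins, in 18 of 19 connexin genes with a coding sequence, and nowhere in Panx1. The connexin without it was Gje1, so the spacing does not set Panx1 apart from every connexin. Between the 4 connexins, 52.8% to 57.2% of aligned coding bases, gaps included, were identical, and between Panx1 and each of them 45.4% to 47.9%. Between the 4 and the other connexins the range was 35.1% to 57.8%, which spans the Panx1 values, so this measure does not set Panx1 apart. The longest run of identical bases between coding sequences of the 4 connexins was 26, and with any of the other connexins 29. The counts of Gja1, Gja4 and Panx1 were whole numbers in every library, whereas those of Gjc1 were not whole in 6 libraries and those of Gja5 in 4, as RSEM gives where it divides reads that match more than 1 place.

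The promoters of Gja4 and Gja5 are shown because these were the genes whose levels varied most alike over the 6 libraries, as given further on. Each line holds the 250 bases before the RefSeq start, 5′ to 3′ on the strand of the gene, in GRCm38.p6. The capitals mark GGGCGG, the core of the GC box bound by Sp factors, and CACCC, the core of the box bound by Klf factors, on either strand.
Gja4, chr4:127314040-127314289, minus strand: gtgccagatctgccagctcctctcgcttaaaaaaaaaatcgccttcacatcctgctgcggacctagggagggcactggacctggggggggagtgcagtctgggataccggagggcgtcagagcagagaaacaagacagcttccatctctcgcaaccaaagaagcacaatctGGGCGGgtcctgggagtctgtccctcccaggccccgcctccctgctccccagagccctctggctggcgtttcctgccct
Gja5, chr3:97032152-97032401, plus strand: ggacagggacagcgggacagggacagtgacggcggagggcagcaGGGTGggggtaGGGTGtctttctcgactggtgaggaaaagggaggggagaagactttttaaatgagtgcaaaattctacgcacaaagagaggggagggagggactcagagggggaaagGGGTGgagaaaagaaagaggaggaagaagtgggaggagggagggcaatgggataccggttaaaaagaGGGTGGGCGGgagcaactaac
Both held 1 GGGCGG, at base -79 in Gja4 and at base -17 in Gja5, counted from the start. CACCC was found 4 times in Gja5, at bases -206, -195, -88 and -21 on the other strand, the last overlapping GGGCGG, and not in the Gja4 window. Of 32851 mouse promoter windows of the same length, 32.7% held GGGCGG and 52.0% held CACCC. Gja4 and Gja5 also shared the run tgggataccgg, at bases -151 and -41, which stood in 4 of the 32851 windows, these 2 included. It was noticed after the windows were compared, and Gja5 and Panx1 shared another run of 11 bases that stood in 185 windows. How many windows an arbitrary run of 11 bases would stand in was not computed, so 4 windows cannot be read as few. The Gja1 window held TGACTCA, the AP-1 motif, at base -19, as did 4.46% of windows, and the Panx1 window held CGGAAG, the core of Ets sites, at base -37, as did 13.6%. A match is a string of letters and not a measured binding site.

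Both libraries numbered 1 stood apart from the other 4. The first principal component, which held 59.3% of the variance, placed WT 1 and NPR1+/- 1 on one side and the other libraries on the other. They had less of the smooth muscle markers (summed FPKM of 8697 and 5078, against 13715 to 15326) and more of the fat markers (11897 and 17868, against 2400 to 5215). Erythroid markers were also higher in them (8377 and 6706, against 688 to 1421). Deviations from the genotype means correlated between same-numbered libraries at 0.64, 0.39 and 0.24 for numbers 1 to 3. WT 3 with NPR1+/- 2 (0.445) and WT 2 with NPR1+/- 3 (0.371) correlated as much, so the data set apart number 1 alone. Values are also given within same-numbered pairs. The labels do not say that same-numbered samples were paired. Pairs 2 and 3, and fits with the number as a block, therefore rest on the numbers alone. Npr1 itself had FPKM of 112, 153 and 152 in WT and 70.4, 110 and 133 in NPR1+/- libraries 1 to 3, and was lower in NPR1+/- in each of the 3 pairs, at 65.2%, 73.9% and 83.2% of WT. The genotypes overlapped at this gene, and its log2 fold change was -0.41 (SE 0.27, edgeR adjusted p = 0.999) and -0.44 when the number entered as a block (edgeR adjusted p = 0.311).

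The first comparison was between the genes themselves. FPKM values count fragments and are scaled by transcript length and library size and can be set side by side within a library. Gja1 was the most abundant of the 5 in all 6 libraries, followed by Gjc1, Gja4, Gja5 and Panx1, and no library changed this order. Gja1 exceeded Gjc1 by 1.38 ± 0.42 on the log2 scale of FPKM (SD, n = 6 libraries) and Gjc1 exceeded Gja4 by 0.87 ± 0.39. Gja4 exceeded Gja5 by 0.75 ± 0.38, and the step from Gja5 to Panx1 was 3.45 ± 0.96. Each step had an exact two-sided sign-flip permutation p of 0.03125 (also after adjustment over the 4 steps), the smallest that 6 libraries can give, and the order was taken from the same values. The narrowest step in any library was 0.24, between Gjc1 and Gja4. Among all genes of the table, 93.2% had a lower mean FPKM than Gja1, 83.1% than Gjc1, 71.7% than Gja4, 61.4% than Gja5 and 30.7% than Panx1.

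**Figure D1:**
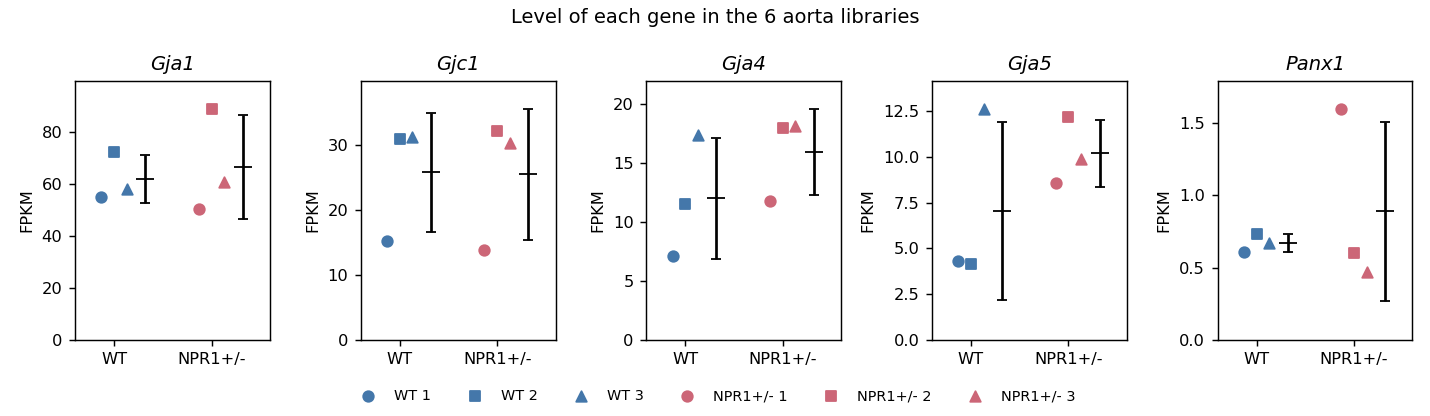
FPKM of Gja1, Gjc1, Gja4, Gja5 and Panx1 in 3 WT (blue) and 3 NPR1+/- (red) aorta libraries, with the mean and SD of each genotype in black and the library number as the shape of the point. Each panel has its own axis from 0, and in every panel the genotypes overlap.

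The second comparison was NPR1+/- against WT, which asks whether loss of 1 copy of the receptor goes with another level of these channel genes. By edgeR's quasi-likelihood test on the estimated counts, 0 of the 5 genes were called, which required an adjusted p under 0.05 and a log2 fold change of 0.5 or more in either direction, beside 0% of the 13938 genes tested. Of all tested genes, 412 had an unadjusted p under 0.05 by edgeR, none of them one of the 5, and DESeq2 called 16 genes, also none of the 5. In counts scaled to library size (CPM), 0 of the 5 genes had all NPR1+/- libraries outside the WT range, as did 7.48% of all genes tested, and 0 of the 5 were higher in NPR1+/- in all 3 same-numbered pairs, as were 17.5%. The point estimates of 4 of the 5 were above 0, as were those of 7186 of the 13938 genes.

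Gja4, an endothelial connexin, had FPKM of 7.09, 11.5 and 17.4 in WT libraries 1 to 3 and 11.7, 18.0 and 18.1 in NPR1+/- libraries 1 to 3. The lowest value was in WT 1, and WT 3 lay within the range of NPR1+/-. The means were 11.98 ± 5.16 in WT and 15.9 ± 3.64 in NPR1+/- (SD, n = 3 each). The log2 fold change was 0.41 (SE 0.35, 95% interval -0.42 to 1.24, edgeR adjusted p = 0.999). Within the same-numbered pairs the NPR1+/- library had 173%, 162% and 98.9% of the WT CPM, so that the difference was present in pairs 1 and 2 and not in pair 3. Blocking on the number gave a log2 fold change of 0.48 (SE 0.18, 95% interval 0.06 to 0.90, edgeR unadjusted p = 0.0306, adjusted p = 0.341). Gja4 was the 1 gene of the 5 with an unadjusted p under 0.05 in that fit, in which 7.36% of all genes tested had such a p and were higher in NPR1+/-, and 0 of the 5 genes and 0% of all genes tested were called in it.

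Gja5, the other endothelial connexin, had FPKM of 4.31, 4.16 and 12.6 in WT and 8.56, 12.2 and 9.89 in NPR1+/- libraries 1 to 3. WT 3 was the highest of the 6, and the other 2 WT libraries were below all 3 NPR1+/- libraries. The means were 7.04 ± 4.85 in WT and 10.2 ± 1.84 in NPR1+/- (SD, n = 3 each), and the log2 fold change was 0.53 (SE 0.47, 95% interval -0.58 to 1.64, edgeR adjusted p = 0.999). NPR1+/- had 208% and 303% of the WT CPM in pairs 1 and 2 and 74.1% in pair 3. The block gave a log2 fold change of 0.72 (SE 0.35, 95% interval -0.09 to 1.53, edgeR adjusted p = 0.459). The estimate was over 1.5 times larger or smaller without each of the WT libraries, at 1.28 without WT 3 (SE 0.20, edgeR unadjusted p = 0.000985, adjusted p = 1.00), 0.25 without WT 2 (SE 0.47) and 0.26 without WT 1 (SE 0.47). The estimate of Gja4 moved in the same direction, to 0.79 without WT 3 and to 0.13 without WT 1. It moved little without WT 2 (0.36, against 0.41 with all 6 libraries).

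Gja1, the most abundant connexin, had FPKM of 55.0, 72.3 and 58.1 in WT and 50.4, 89.0 and 60.6 in NPR1+/- libraries 1 to 3. Library 2 was the highest of either genotype and library 1 the lowest. The means of 61.8 ± 9.20 and 66.6 ± 20.01 (SD, n = 3 each) gave a log2 fold change of 0.12 (SE 0.24, 95% interval -0.46 to 0.70, edgeR adjusted p = 0.999). NPR1+/- stood at 95.6%, 127% and 98.7% of WT in the 3 pairs, and without NPR1+/- 2 the log2 fold change was -0.16.

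Gjc1, the smooth muscle connexin, had FPKM of 15.2, 30.9 and 31.3 in WT and 13.9, 32.2 and 30.4 in NPR1+/- libraries 1 to 3. Its levels followed the library number, with CPM of 29.7 to 32.2 in both libraries numbered 1 and 62.0 to 67.3 in the other 4. The genotype means were 25.8 ± 9.15 and 25.5 ± 10.1 FPKM (SD, n = 3 each), with a log2 fold change of -0.03 (SE 0.38, 95% interval -0.95 to 0.89, edgeR adjusted p = 1.00). The pairs were at 92.4%, 107% and 92.7%, and the interval narrowed to -0.30 to 0.21 around -0.04 with the block. Without both libraries numbered 1 the estimate was -0.01 (SE 0.11, edgeR adjusted p = 0.982).

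Panx1, the ATP release channel, was the lowest of the 5, with 17, 24 and 23 counts in WT and 48, 20 and 15 in NPR1+/- libraries 1 to 3. In FPKM it had 0.61, 0.73 and 0.67 in WT and 1.6, 0.60 and 0.47 in NPR1+/-. NPR1+/- 1 was above all 5 other libraries, NPR1+/- 3 was the lowest, and NPR1+/- 2 was close to the lowest WT library. The count of 48 was 3.32 CPM of the library's total (exact binomial 95% interval 2.45 to 4.40), and the next highest, in WT 2, was 1.51 (0.970 to 2.25). These intervals cover counting error only and do not overlap. The log2 fold change was 0.43 (SE 0.53, 95% interval -0.82 to 1.69, edgeR adjusted p = 0.999), and it turned to -0.33 without NPR1+/- 1 and to -0.38 without both libraries numbered 1.

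**Figure D2:**
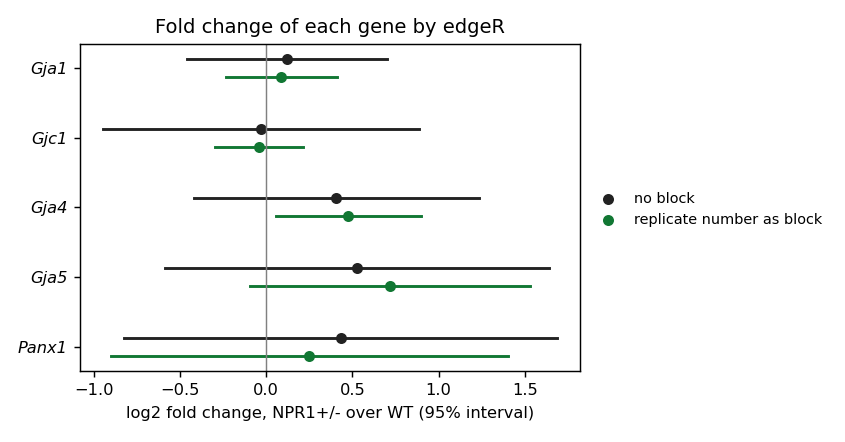
Log2 fold change of NPR1+/- over WT for the 5 genes by edgeR, with points for the estimate and lines for its 95% interval, without a block (black) and with the library number as block (green). With the block, the interval of Gja4 ran from 0.06 to 0.90 and that of Gjc1 from -0.30 to 0.21, while the intervals of Gja5 and Panx1 stayed wide and included 0.

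**Figure D3:**
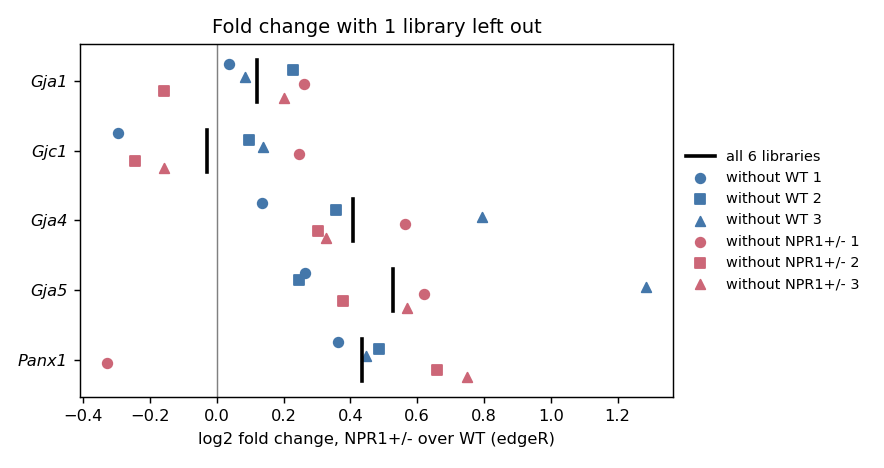
Log2 fold change of NPR1+/- over WT for the 5 genes by edgeR with all 6 libraries (black bar) and with each library left out (points, blue for a WT and red for an NPR1+/- library, shape for its number). Gja4 and Gja5 stayed above 0, with the farthest value for Gja5 without WT 3 at 1.28, and Panx1 fell to -0.33 without NPR1+/- 1.

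The third comparison was of the makeup of the connexin RNA, which does not depend on the scaling between libraries. The summed FPKM of the 4 connexins was 81.7, 119 and 119 in WT and 84.6, 151 and 119 in NPR1+/- libraries 1 to 3. Gja1 made up 59.0% ± 9.50 of this sum in WT and 56.4% ± 4.79 in NPR1+/- (SD, n = 3 each), and Gjc1 made up 23.6% ± 4.29 and 21.1% ± 4.55. The share of Gja4 was 10.96% ± 3.14 and 13.7% ± 1.70, and that of Gja5 6.45% ± 3.68 and 8.83% ± 1.13. All 4 shares overlapped between the genotypes. Exact two-sided permutation p-values were 0.8 for Gja1, 0.3 for Gja4, 0.4 for Gja5 and 0.5 for Gjc1, where 3 libraries against 3 cannot give less than 0.1.

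**Figure D4:**
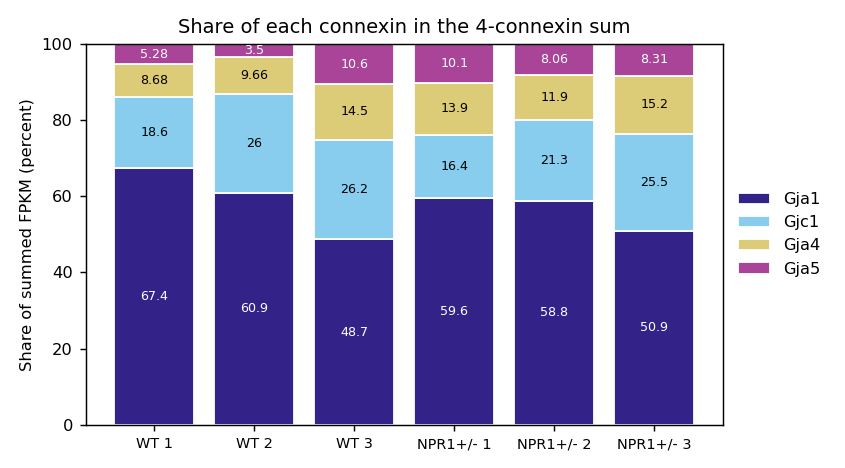
Share of Gja1, Gjc1, Gja4 and Gja5 in the summed FPKM of the 4 connexins in each aorta library, in percent. Gja1 was the largest share in every library, from 48.7% in WT 3 to 67.4% in WT 1, and Gja5 ranged from 3.5% in WT 2 to 10.6% in WT 3.

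In whole aorta, fewer cells of a type and less RNA per cell cannot be told apart, so the genes were set beside markers of the cell types that carry them. All 12 endothelial markers were detected in every library, and their summed FPKM was 198 to 301 in WT and 342 to 480 in NPR1+/-. Of these markers 11 of 12 had a log2 fold change above 0, with a median of 0.61, against a median of 0.01 over all genes tested, 5 of 12 did not overlap between genotypes, beside 7.48% of all genes tested, and none was called. All 10 smooth muscle markers were also present in every library, and 1 of 10 was above 0, with a median of -0.27. Of the markers of other cell types, log2 fold changes were above 0 for fat markers in 9 of 9 (median 0.75), lymphatic endothelial markers in 5 of 6 (median 0.66) and fibroblast markers in 1 of 8 (median -0.43), none of them called.

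Gja4 less the mean log2 CPM of the endothelial markers was -2.51, -1.16 and -1.07 in WT and -2.47, -1.22 and -1.16 in NPR1+/- libraries 1 to 3. The genotypes overlapped, with a difference of -0.04 (exact permutation p = 0.7, two-sided). For Gja5 the same difference was 0.21 (exact permutation p = 0.8), for Gja1 -0.44 (0.5) and for Panx1 -0.31 (0.5). Gja1 was lower by this measure in NPR1+/- in all 3 same-numbered pairs, from 1.32 to 0.52, 2.39 to 1.98 and 1.56 to 1.47 (exact sign-flip permutation p = 0.25, the smallest that 3 pairs can give). Beside the smooth muscle markers, Gja1 was instead higher in NPR1+/- in all 3 pairs (exact sign-flip permutation p = 0.25). The endothelial mean itself was higher in NPR1+/- in each pair (6.08 to 6.82, 5.40 to 6.16 and 5.98 to 6.06 log2 CPM). The smooth muscle mean was lower in each (9.89 to 9.35, 10.74 to 10.64 and 10.77 to 10.58). The share of all genes with these directions was not computed, so they cannot be read as particular to Gja1. Without the endothelial reference, Gja4 and Gja5 were higher in NPR1+/- by 0.41 and 0.53, as above. The endothelial markers were higher as well, and the part of these markers in the result was not tested further.

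Relative to the smooth muscle markers, Gjc1 stood at -4.88, -4.75 and -4.70 in WT and at -4.45, -4.56 and -4.62 in NPR1+/- libraries 1 to 3 on the log2 scale. Here the spread over libraries was small, and every NPR1+/- library was above every WT library. The difference was 0.23 (exact permutation p = 0.1, the smallest possible, and 0.4 after adjustment over the 8 differences of this kind). Gja4 relative to smooth muscle was also without overlap, at -6.32, -6.49 and -5.86 in WT and -4.997, -5.70 and -5.68 in NPR1+/-, a difference of 0.76 (exact permutation p = 0.1, adjusted 0.4). For Gja1 relative to smooth muscle the difference was 0.37 (exact permutation p = 0.5), and for Panx1 0.50 (exact permutation p = 1). The CPM of Gjc1 and of Gja4 overlapped between the genotypes, and the smooth muscle markers were lower in NPR1+/- by the median given above. The share of all genes without overlap relative to these markers was not computed. The separation of Gjc1 and Gja4 therefore cannot be read as particular to them.

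Panx1 was highest in the library that held neuron markers. The summed FPKM of 11 neuron markers was 229 in NPR1+/- 1, with all 11 above 0, and 3.30 to 7.10 in the other 5 libraries, in which 3 or 4 of the 11 were at 0. Markers of Schwann cells, the glia of peripheral nerve, summed to 115 FPKM in NPR1+/- 1, 23.2 and 30.7 in the other NPR1+/- libraries and 17.2 to 38.5 in WT. Whether these cells carried the added Panx1 counts of NPR1+/- 1 was not tested.

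**Figure D5:**
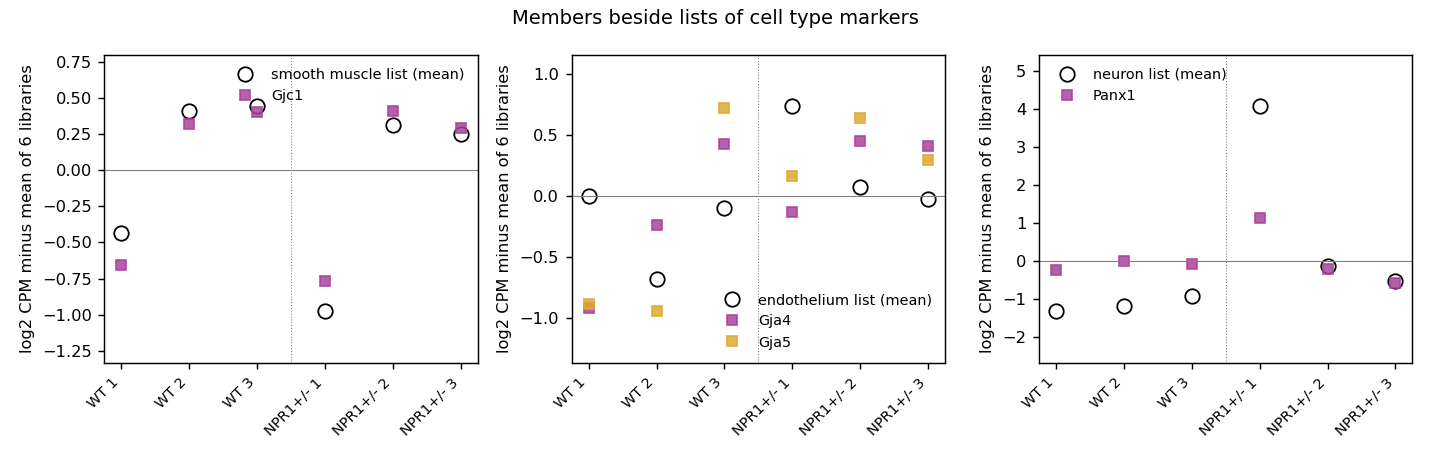
Log2 CPM of Gjc1, Gja4, Gja5 and Panx1 (squares) and mean log2 CPM of the smooth muscle, endothelium and neuron marker lists (circles) in each library, each less its mean over the 6 libraries. Gjc1 and the smooth muscle markers were low in both libraries numbered 1, Gja4 and Gja5 were not highest where the endothelial markers were, and Panx1 and the neuron markers were highest in NPR1+/- 1.

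Levels of the 5 genes over libraries were also compared with each other and with all 13938 genes by Pearson's r of log2 CPM, as a description of 6 libraries, of which both numbered 1 differed in tissue makeup from the other 4. Gja4 and Gja5 were the most alike of the 5, with r of 0.87, followed by Gja4 and Gjc1 with 0.73 and Gja1 and Gjc1 with 0.69. Gjc1 and Panx1 were the most opposed, at -0.61. Among the genes nearest to Gja4 were Nol9 (0.981) and Dgkg (0.981), and those nearest to Gja5 were Adh7 (0.992), Ehd4 (0.989) and Tymp (0.973). Gja1 was nearest to Rap1a (0.994), Ddx20 (0.980) and Fam205a3 (0.978). For Gjc1 the nearest were Wdr1 (0.995), which encodes an actin disassembly factor, Slc23a3 (0.994) and Map3k3 (0.994). Panx1 was nearest to Cacna2d2 (0.998), a calcium channel subunit of neurons, Sez6l2 (0.994) and Zcchc18 (0.994). Like Panx1, each of these was highest in NPR1+/- 1, as with Sez6l2 at 2.02 FPKM there and 0.27 to 0.43 in the other libraries. These values of r thus lean on 1 library, and r was not computed without it.

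The other genes of these pathways were taken from lists, of which the genes with the highest FPKM and the smallest p are named. No gene of any list was called by edgeR. Of the other connexins, 13 of 16 were measured and 3 were tested, and the other 10 did not exceed 0.78 FPKM in any library. Gje1 had FPKM of 4.10, 4.43 and 1.63 in WT and 3.21, 3.34 and 6.57 in NPR1+/-, Gja6 had 2.05, 4.10 and 5.16 against 1.34, 3.17 and 4.05, and Gjc3, a connexin of glia, had 2.49, 2.64 and 1.75 against 3.49, 1.87 and 2.83. All 3 overlapped between the genotypes. Each was below Gja4, the third of the vascular connexins by level, in mean FPKM.

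Among the other large-pore channels, 5 genes were tested, all of the volume-regulated anion channel, Lrrc8a to Lrrc8e. Their 5 log2 fold changes were above 0, with a median of 0.34. The pannexin gene Panx2 was measured, at 0.03 to 0.77 FPKM, and was not tested. Lrrc8a, the obligate subunit of the volume-regulated anion channel, had FPKM of 28.5, 28.8 and 32.3 in WT and 28.4, 32.3 and 30.2 in NPR1+/-, far above Panx1. Lrrc8c had a log2 fold change of 0.34 (SE 0.18), Lrrc8d of 0.39 (SE 0.54) and Lrrc8e of 0.34 (SE 0.32), none past the test (edgeR adjusted p = 0.999 each). None of the 5 was without overlap between genotypes.

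Of the connexin partners and kinases, 17 were tested, with 5 above 0, 12 below 0 and a median of -0.06. Cav1, the caveolar scaffold protein, had a log2 fold change of 0.06 (SE 0.25), Ccn3, a matricellular protein that binds Cx43, of -0.24 (SE 0.30) and Nedd4, a ubiquitin ligase that targets Cx43, of -0.17 (SE 0.23). Cdh5, the cadherin of endothelium and also one of the endothelial markers, had FPKM of 31.3, 16.3 and 26.7 in WT against 57.0, 29.6 and 24.9 in NPR1+/- and a log2 fold change of 0.61 (SE 0.39, edgeR adjusted p = 0.999).

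Purinergic signalling, which receives and degrades the ATP that pannexin channels release, had 22 genes tested, 14 above 0, 8 below 0 and a median of 0.07. Adora2a, an adenosine receptor, had FPKM of 3.11, 2.01 and 2.30 in WT and 5.93, 3.6 and 3.36 in NPR1+/-, without overlap, and a log2 fold change of 0.82 (SE 0.31, edgeR unadjusted p = 0.0348, adjusted p = 0.999). Adora2b, its low-affinity relative, had 0.40, 0.51 and 0.39 against 0.83, 0.68 and 0.53, also without overlap, with a log2 fold change of 0.65 (SE 0.35, edgeR adjusted p = 0.999). Its counts were 10, 15 and 12 in WT and 22, 20 and 15 in NPR1+/-. WT 2 and NPR1+/- 3, with 15 counts each, differed only by library scaling (0.926 and 0.953 CPM). Adora2a and Adora2b, 2 of 22 (9.09%), were the genes of the list without overlap, beside 7.48% of all genes tested. Entpd1, the main vascular enzyme that degrades extracellular ATP, had 51.5, 77.3 and 88.9 against 30.4, 60.8 and 70.2, lower in each pair (log2 fold change -0.44, SE 0.35, edgeR adjusted p = 0.999). Entpd2 and the adenosine transporter Slc29a1 had log2 fold changes of -0.09 (SE 0.14) and -0.18 (SE 0.20).

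Of the transcription factors known to act on connexin genes, 15 were tested, with 9 above 0, 6 below 0 and a median of 0.13. Klf2, the flow-induced factor of endothelium, had FPKM of 62.5, 65.5 and 88.7 in WT and 91.5, 121 and 93.7 in NPR1+/-, without overlap, and a log2 fold change of 0.51 (SE 0.21, edgeR unadjusted p = 0.0515, adjusted p = 0.999). Klf4, its relative in endothelium and smooth muscle, had 30.3, 31.3 and 27.7 against 31.9, 39.4 and 33.0 and a log2 fold change of 0.24 (SE 0.13). Tbx2, a repressor of Gja1 and Gja5 in the heart, had 4.16, 4.96 and 4.24 against 5.01, 6.03 and 6.48 and a log2 fold change of 0.40 (SE 0.15, edgeR unadjusted p = 0.0317, adjusted p = 0.999). Foxo3 had 20.4, 21.3 and 22.8 against 13.3, 17.1 and 19.0 and a log2 fold change of -0.38 (SE 0.16, edgeR adjusted p = 0.999), while Jun, a subunit of AP-1, overlapped and had -0.15 (SE 0.32). Klf2, Klf4 and Tbx2 were higher and Foxo3 lower, each without overlap, and none passed the adjusted test. These 4 were 26.7% of the 15 tested, beside 7.48% of all genes. Klf2 was without overlap by a narrow margin, at 165.15 CPM in NPR1+/- 3 and 164.99 in WT 3. Of the endothelial markers, 5 of 12 were without overlap as well.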

How the data were processed

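After SOAPnuke filtering and Bowtie2 alignment to a coding gene set, the authors deposited the expected counts of RSEM, unnormalized, and its FPKM, scaled by transcript length and library size. The labels name mm10 and DESeq2 1.4.5. The deposited columns of NPR1+/- samples are headed as knockdown, with the numbers of the labels. The authors' group means were not used. Of 18191 genes, 18070 were given a symbol.

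Estimated counts were rounded and tested with R 4.3.3 and edgeR 4.0.16 (TMM, filter at a minimum count of 10, quasi-likelihood test, Benjamini-Hochberg adjustment over 13938 genes). Alternatives were DESeq2 1.42.0, limma 3.58.1 on log2(FPKM + 0.1) where the mean FPKM reached 0.1 and on log2(FPKM + 1), other scaling, no filter, the replicate number as a block and leaving out libraries. Deviations from the group means of same-numbered libraries correlated at 0.64, 0.39 and 0.24, all over 0.1. On this bound the numbers of the labels were used to pair the samples, though the labels state no pairing. WT 3 with NPR1+/- 2 (0.445) and WT 2 with NPR1+/- 3 (0.371) passed the bound too. They correlated as much, so that the data set apart number 1 alone. Small sets were tested by exact permutation. The edgeR and DESeq2 fits were checked on simulated data, and the permutation tests on fixed numbers with a known p. At this depth, 3 counts were 0.18 to 0.222 CPM.

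Named genes are the 5 genes, Npr1, the 3 genes of highest mean FPKM and the 2 of smallest p in each pathway list, the 3 genes most alike to each of the 5, and marker genes. A gene that this rule names in 1 pathway list, and 1 of those most alike to Gja4, are not reported here. The genes, lists and tests were chosen with earlier results of these data known. The levels of Gja3, Gja10, Gjb6 and Panx3 were not analysed here, while the coding sequences of Gja3, Gja10 and Gjb6 were among those compared. Sequences are from RefSeq and GENCODE M21 on GRCm38, and 4 of the 5 genes matched a RefSeq promoter, Gjc1 not.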

Additional observations from a re-analysis of the deposited data

How the results depend on the processing

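None of the 5 genes was called under any of the 14 alternatives tried for each, and their adjusted p ran from 0.341 to 1.00. The log2 fold changes of Gja4 and Gja5 stayed above 0 in all 14, from 0.13 to 0.79 and from 0.25 to 1.28 with 1 library left out. That of Gja1 ran from -0.16 (without NPR1+/- 2) to 0.26, that of Gjc1 from -0.30 to 0.25, above 0 without WT 2 (0.10), WT 3 (0.14) or NPR1+/- 1 (0.25), and that of Panx1 from -0.33 (without NPR1+/- 1) to 0.75, with -0.38 without both libraries numbered 1. Over all genes, edgeR called 0, DESeq2 16, and edgeR without both libraries numbered 1 called 1. With the replicate block, edgeR called 0 (1735 genes at an unadjusted p under 0.05, against 412) and DESeq2 265, and the block changed no call of the 5 genes (Gja4 0.48, edgeR adjusted p = 0.341). With 5 libraries the smallest exact p for the order of levels is 0.0625, so no step could pass, and the steps ran from 1.29 to 1.48, 0.76 to 0.99, 0.61 to 0.81 and 3.27 to 3.66. With 1 library left out, the difference in the Gja1 share ran from -7.70 to 1.66 percentage points (0.207 without NPR1+/- 3 and 1.66 without WT 1). Relative to endothelial markers, Gja4 ran from -0.50 to 0.39 (0.17 without WT 2, 0.22 without WT 3, 0.39 without NPR1+/- 1, 0.0926 with the list's median) and Gja5 from -0.18 (without WT 1) to 0.67, with -0.02 without NPR1+/- 2. Panx1 relative to smooth muscle ran from -0.43 (without NPR1+/- 1) to 1.04. List medians ran from -0.0456 to 0.49 for other connexins, 0.0435 to 0.48 for other large-pore channels and -0.0604 to 0.30 for transcription factors. The cause of these shifts was not tested. Panx1 had 15 to 48 counts a library, the fewest of the 5, and 3 libraries a genotype limit every gene.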
